A study of Mus musculus with 12 samples.

Results

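The mRNAs of the cytosolic ribosomal proteins were followed in follicular B cells of the mouse spleen that were stimulated through their antigen receptor. Members were all genes whose annotated symbol is that of a protein of the large or small subunit (Rpl or Rps and a number, with a paralog suffix allowed), of the acidic stalk (Rplp0, Rplp1 or Rplp2) or Rpsa, read from probe sets assigned to 1 symbol. On the array 49 genes met the rule, with 105 probe sets, and the probe set with the highest mean over the 12 arrays stood for each gene. Of these, 46 of the 12190 genes tested passed the filter on dim probe sets: 20 genes of the large subunit, 20 of the small subunit, the stalk genes Rplp0 and Rplp2, and the 4 paralogs Rpl22l1, Rps27l, Rpl7l1 and Rps4l. The other 110 probe sets that carry a ribosomal protein symbol are assigned to several symbols and were left out by the rule, so Rpl3, Rpl5, Rpl10, Rpl23, Rpl26 and Rplp1 are not among the members.

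The cells came from male 129SvEv mice aged 8 weeks that were labelled Zfx cko (written cko here, a conditional knockout of the transcription factor Zfx) or Zfx wt (written wt), and were sorted as B220+ AA4.1- CD23hi CD21int. They were cultured with 10 µg/mL of anti-IgM, an antibody that cross-links the B cell receptor, for 0, 2 or 12 h, which gives 6 groups of 2 arrays each: cko and wt at each of the 3 times. The sources used here do not give the Cre driver or the deleted part of Zfx. Labelled RNA was put on arrays in duplicate. Nothing says that the 2 arrays of a group came from separate mice, so a p-value here reflects the spread of arrays only, which can be purely technical.

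A ribosome is built from ribosomal RNA and about equal amounts of each ribosomal protein, assembled in the nucleolus into a small subunit, which reads the mRNA, and a large subunit, which joins amino acids. The mRNAs of these proteins are among the most abundant in a cell, and most start with a C followed by a run of pyrimidines, the 5′ terminal oligopyrimidine (TOP) motif, through which mTORC1 and Larp1 control their translation. Resting B cells are small, and activation through the receptor is accompanied by growth and by new ribosomes. A few ribosomal proteins have a second gene, a paralog, that is expressed in some tissues or states.

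The start regions of some members with called changes are shown because they differ in runs of pyrimidines near the annotated start. Such a run can lie before the start or after it, so it is not by itself a TOP motif. Each line gives 40 bases before and 40 from the start of the gene, 5′ to 3′ on the gene's strand, from RefSeq on GRCm38.p6, and capitals mark the longest run of at least 8 pyrimidines (C or T), or the first of them 5′ to 3′ where runs are equally long. In the Rps27l window another run of the same length follows the marked one after a single a. The marked run begins at position -22 and ends before the annotated start. The window at the other annotated start of Rps27l held no run longer than 5. Rpl22l1 lies at chr3:28805468-28805547 (plus strand), Rps27l at chr9:66946046-66946125 (plus strand, the first of its annotated starts), Rpl7l1 at chr17:46782617-46782696 (minus strand), Rps9 at chr7:3704001-3704080 (plus strand), Rpl27a at chr7:109519155-109519234 (plus strand) and Rps10 at chr17:27635205-27635284 (minus strand).
Rpl22l1: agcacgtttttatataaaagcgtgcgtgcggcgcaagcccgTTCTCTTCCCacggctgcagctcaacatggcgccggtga
Rps27l: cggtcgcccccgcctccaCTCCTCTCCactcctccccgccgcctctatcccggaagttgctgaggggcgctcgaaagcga
Rpl7l1: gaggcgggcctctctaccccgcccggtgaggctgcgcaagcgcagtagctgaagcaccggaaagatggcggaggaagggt
Rps9: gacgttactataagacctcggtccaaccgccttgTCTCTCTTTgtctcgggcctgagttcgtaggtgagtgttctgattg
Rpl27a: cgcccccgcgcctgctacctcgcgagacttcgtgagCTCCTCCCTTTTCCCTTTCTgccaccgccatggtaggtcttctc
Rps10: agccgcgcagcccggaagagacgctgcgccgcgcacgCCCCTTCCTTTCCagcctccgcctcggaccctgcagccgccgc
The window of Rpl7l1 held no run of 8, its longest being 7. Of 46 tested members, 40 had an entry in the promoter table, and 31 of these 40 (77.5%) held a run of at least 8 pyrimidines on the gene's strand within 40 bases of the start, against 8805 of all 27025 genes in the table (32.6%). Over the whole window of 250 bases before and 50 after the start, CACGTG, the E-box bound by Myc, read on both strands, was present in 4 of 40 members (10%), against 8.09% of all genes. AGGCCT, the core bound by Zfx, was present in 6 of 40 (15%), against 11.6% of all genes. A match describes the letters in the window and says nothing about binding or use.

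Values are array signals on a linear scale, scaled by the depositors so that the mean after trimming 2% at each end is 250 on every array, and differences are of log2(signal + 16), with their standard error (SE). Signals of different genes come from different probes and are not compared with each other. Zfx itself gave signals of 2189 and 2618 in cko, against 983 and 1041 in wt, at 0 h, of 974 and 1035 in cko, against 810 and 790 in wt, at 2 h, and of 1237 and 1341 in cko, against 1013 and 962 in wt, at 12 h. Because it is not known whether this probe set lies in the deleted part, its higher level in cko checks nothing about the labels.

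Control probe sets divided the groups in a way that neither genotype nor time does. In the groups cko 2 h, cko 12 h and wt 2 h actin read 5′ of the transcript reached 8.41 to 19.1% of actin read at the 3′ end, and the 18S rRNA 3′ probe set read 1022 to 1299. In the groups cko 0 h, wt 0 h and wt 12 h the same measures were 1.80 to 3.33% and 6636 to 10892. The brightest probe set of an array also differed, at 28701 to 33534 in the first set of groups and 43743 to 53319 in the second. The comparisons of cko with wt at 0 h and at 2 h, of 12 h with 0 h in wt and of 12 h with 2 h in cko lie within this division. The other comparisons between 2 groups cross it, and there the division and the groups cannot be told apart. At 2 h it crosses the time differences of both genotypes, and its part in that interaction was not tested. At 12 h it crosses the time difference of cko but not that of wt, and it cannot be told apart from that interaction. Control probes also differed between groups on the same side of the division. Actin read 5′ was 10.6 and 10.8% of the 3′ signal in cko 2 h, against 19.1 and 19.0% in cko 12 h. The 18S rRNA 3′ probe set read 6636 and 7305 in wt 0 h, against 10892 and 10672 in wt 12 h. The part of these differences was not tested.

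B cell markers were read on every array, with 9 of 10 markers passing the filter and summed signals of 30092 to 84401. Fewer cells of a type and less RNA per cell cannot be told apart in these sorted populations.

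Ribosomal protein probe sets were among the brightest on the array. At 0 h, 18 of the 46 members had signals above 20000 on all 4 arrays, and the highest signal of a member was 48584 (Rps18, in cko at 0 h), against 53319 for the highest of any probe set. Rpsa, a small-subunit protein that was also described as a laminin receptor, gave 44759 and 45803 in cko and 39210 and 39647 in wt at 0 h, 25915 and 28533 in cko and 25749 and 24594 in wt at 2 h, and 30871 and 31543 in cko and 40716 and 43771 in wt at 12 h. It was lowest in the cko 2 h, wt 2 h and cko 12 h groups, the same groups that the control probes set apart. This pattern recurs in many genes of the large and of the small subunit in the heat map of all members.

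**Figure D1:**
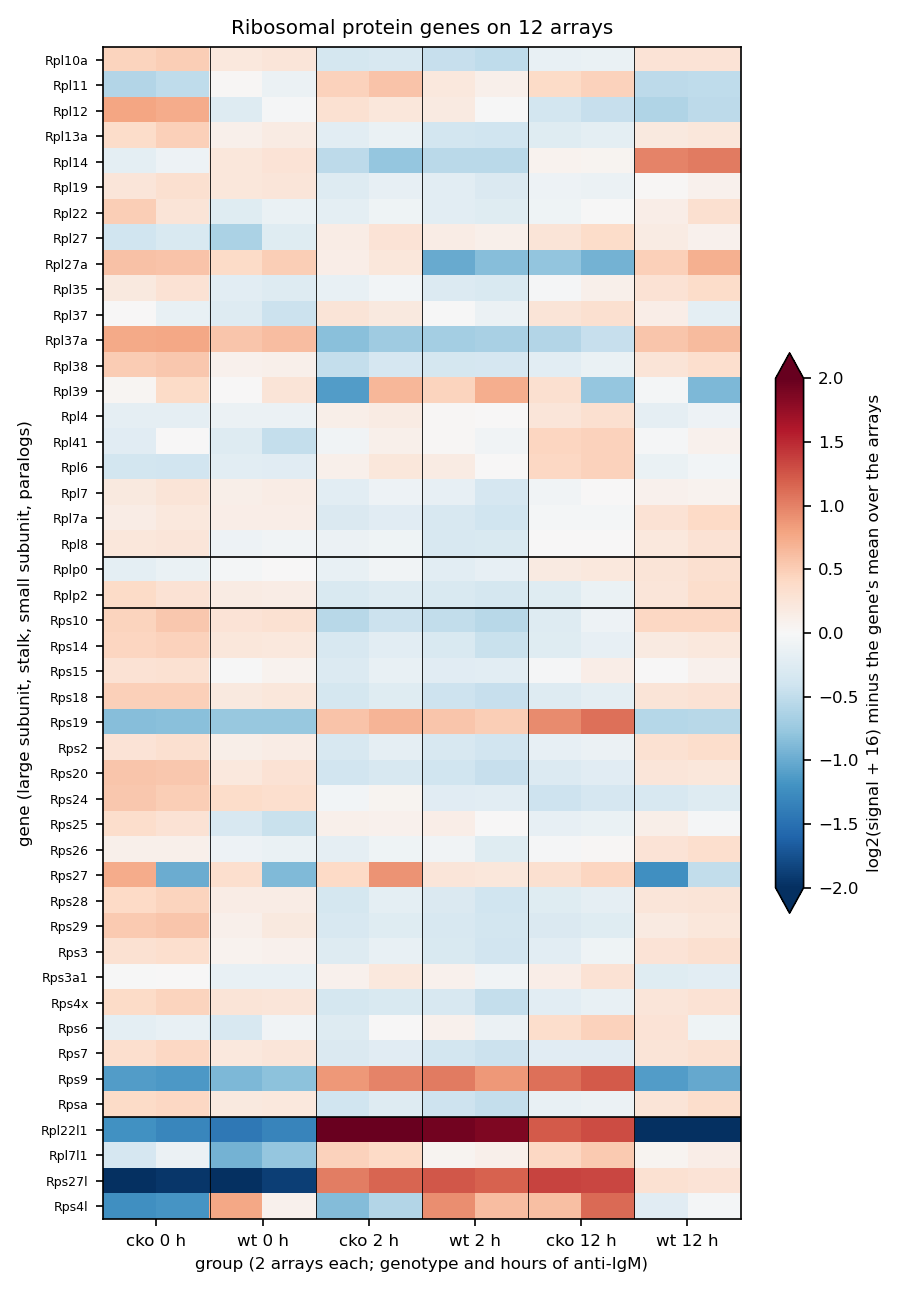
Rows are the 46 tested members, ordered as large subunit, stalk, small subunit and paralogs, and columns are the 12 arrays, 2 in each group; colour gives log2(signal + 16) minus the gene's mean over the arrays, and values beyond 2 in either direction take the end colours. Rpl22l1 and Rps27l show the widest range, and many genes of the large and of the small subunit share lower values in cko 2 h, wt 2 h and cko 12 h.

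Rpl22l1 and Rps27l, both paralogs, had the largest changes of the family. Rpl22l1, the paralog of the RNA-binding protein Rpl22, gave 659 and 616 in cko at 0 h, 6120 and 6148 at 2 h, and 3642 and 3855 at 12 h. In wt it gave 568 and 611 at 0 h, 5942 and 5666 at 2 h, and 312 and 218 at 12 h. The genotypes differed by 0.11 ± 0.12 at 0 h (adjusted p = 0.53) and 0.08 ± 0.12 at 2 h (adjusted p = 0.684), and were far apart at 12 h, where the cko arrays stayed high and the wt arrays were below their own 0 h level. At 2 h against 0 h it rose by 3.24 ± 0.12 in cko (limma adjusted p = 1.72e-11) and by 3.27 ± 0.12 in wt (adjusted p = 2.14e-11). At 12 h against 0 h it rose by 2.53 ± 0.12 in cko and fell by 1.13 ± 0.12 in wt, and the fall in wt lies within the control-probe division (adjusted p = 2.13e-06). The difference of cko from wt at 12 h was 3.76 ± 0.12 (adjusted p = 5.07e-11), and it crosses the division. So do the rises at 2 h in both genotypes and at 12 h in cko. The high arrays of Rpl22l1 are those of cko 2 h, wt 2 h and cko 12 h, the groups that the control probes set apart. The division and these groups cannot be told apart. Rpl22 itself, on its brightest probe set, gave 27881 and 23797 in cko and 16874 and 18210 in wt at 0 h. At 2 h it gave 17393 and 18712 in cko and 17135 and 16878 in wt. At 12 h it gave 18830 and 19723 in cko and 21787 and 24785 in wt. Another Rpl22 probe set averaged 1184 in cko and 1049 in wt at 0 h and 5300 and 4291 at 2 h. At 12 h that probe set averaged 3836 in cko and 1201 in wt. The remaining one averaged 625 in cko and 948 in wt at 0 h and 1092 and 926 at 2 h. At 12 h it averaged 679 in cko and 961 in wt.

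Rps27l, the paralog of Rps27 and a gene known to be induced by p53, gave 606 and 650 in cko at 0 h, 5208 and 5751 at 2 h, and 6542 and 6461 at 12 h. In wt it gave 623 and 677 at 0 h, 6055 and 5795 at 2 h, and 3155 and 3093 at 12 h. Every stimulated array was above every 0 h array. At 2 h against 0 h it rose by 3.09 ± 0.07 in cko and by 3.16 ± 0.07 in wt, and at 12 h against 0 h by 3.34 ± 0.07 in cko and by 2.24 ± 0.07 in wt. The rise in wt at 12 h lies within the division (adjusted p = 1.51e-11), and its other 2 probe sets gave 2.31 ± 0.11 and 2.20 ± 0.10 there. At 12 h cko was 1.05 ± 0.07 above wt (adjusted p = 1.93e-08), a comparison that crosses the division. The rises at 2 h in both genotypes and at 12 h in cko also cross it. Rps27 itself gave 50.4 to 272.8 over the 12 arrays on its probe set, a level that cannot be set against that of Rps27l. Its duplicates were far apart at 0 h, at 245.1 and 62.4 in cko and 180.0 and 68.2 in wt, and close in the wt 2 h group, at 167.3 and 165.6.

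Rpl7l1, the Rpl7-like gene of the large subunit, gave 1433 and 1665 in cko at 0 h, 2491 and 2378 at 2 h, and 2421 and 2606 at 12 h. In wt it gave 934 and 1053 at 0 h, 1887 and 1950 at 2 h, and 1889 and 1989 at 12 h. On this brightest probe set both cko arrays were above both wt arrays at each time, and the 2 h and 12 h arrays of a genotype overlapped. The difference of cko from wt was 0.63 ± 0.08 at 0 h (adjusted p = 8.04e-05), 0.34 ± 0.08 at 2 h (adjusted p = 0.00774) and 0.37 ± 0.08 at 12 h (adjusted p = 0.00195). The difference at 2 h lost its call without replicate 1 of cko 2 h (0.31) or replicate 1 of wt 2 h (0.32). Another probe set gave 0.50 ± 0.08, 0.28 ± 0.08 and 0.37 ± 0.08 at 0, 2 and 12 h. The dimmest gave 0.43 ± 0.12 at 0 h, 0.07 ± 0.12 at 2 h, where the call was lost (adjusted p = 0.803), and -0.28 ± 0.12 at 12 h, the opposite sign, with means of 412.3 in cko and 504.0 in wt. At 12 h against 0 h it rose by 0.96 ± 0.08 in wt (adjusted p = 3.55e-07), and its other probe sets gave 1.50 ± 0.08 and 0.83 ± 0.12. Rpl7 differed little, with 12 h minus 0 h in wt at -0.05 ± 0.06 (adjusted p = 0.493).

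Rps4l, the Rps4x-like gene, was near the bottom of the range, at 1.97 and 2.46 in cko against 55.6 and 28.6 in wt at 0 h, 7.09 and 12.0 in cko against 63.8 and 48.6 in wt at 2 h, and 47.4 and 76.2 in cko against 19.96 and 24.84 in wt at 12 h. It was lower in cko at 0 h (-1.63 ± 0.34, adjusted p = 0.00236) and at 2 h (-1.50 ± 0.34, adjusted p = 0.00476) and higher in cko at 12 h (0.997 ± 0.34, adjusted p = 0.0246). At these signals the added 16 decides much of the size of a difference, and the call at 2 h was lost without replicate 1 of wt 2 h (-1.34). Rpl3l and Rpl39l, the other paralogs on the array, did not pass the filter.

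**Figure D2:**
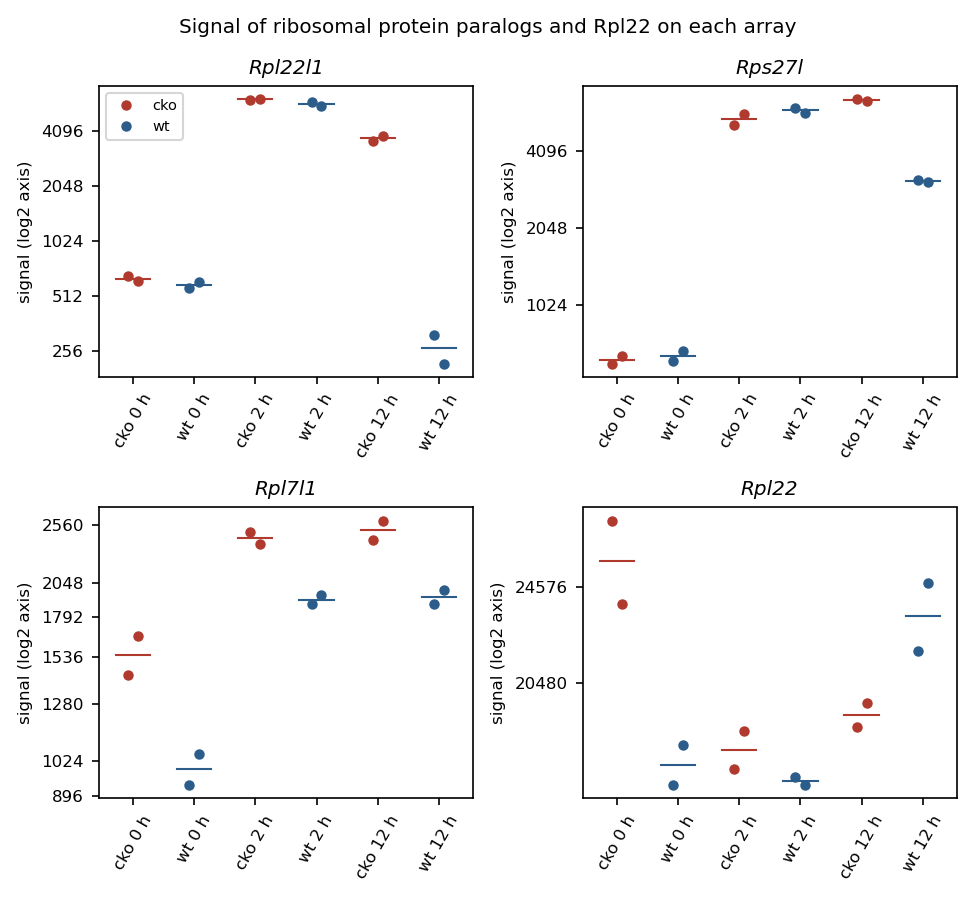
Each point is 1 array and each line the mean of a group's 2 arrays, with cko in red left of wt in blue at each time; the vertical axis is the signal on a log2 axis whose range differs between panels. Rpl22l1 was at 3642 and 3855 in cko and 312 and 218 in wt at 12 h. Rpl22 is drawn on its brightest probe set only, between 16874 and 27881 on all arrays. Another Rpl22 probe set, not drawn, averaged 5300 in cko and 4291 in wt at 2 h, against 1184 and 1049 at 0 h.

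In unstimulated cells, 26 of the 46 members were higher and 6 lower in cko than in wt (limma, Benjamini-Hochberg adjusted p under 0.05 over all genes), where 16.3% of all genes were higher and 16% lower. The median difference of the members was 0.17, against 0.02 for all genes. After quantile normalization the counts were 8 higher and 11 lower, with medians of -0.03 for the members and 0.01 for all genes. The direction of the family at 0 h therefore depends on the scaling. Of the large subunit 9 genes were higher and 3 lower, and of the small subunit 15 were higher and 1 lower. Typical small-subunit differences were those of Rps3, near the mRNA entry (0.24 ± 0.05), Rps14 (0.23 ± 0.05) and Rps26, near the mRNA exit (0.21 ± 0.05), all called. Another probe set of Rps3 gave -0.13 ± 0.09. Rpl12, Rps25, Rpl11 and Rpl14 stood well outside this range. They kept direction and call in every alternative that refitted single genes, but none of the 4 differed by 2-fold, and under a rule that also needs a 2-fold difference Rps4l was the only member called at 0 h, where 2.3% of all genes were higher and 3.31% lower by this rule.

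Rpl12, a protein at the base of the stalk, gave 4808 and 4662 in cko against 2335 and 2755 in wt at 0 h. The arrays of the genotypes did not overlap, and the difference was 0.90 ± 0.08 (adjusted p = 4.25e-06). Rps25, a small-subunit protein that some viral RNAs need for initiation, gave 2652 and 2548 in cko against 1652 and 1520 in wt (0.71 ± 0.07, adjusted p = 8.07e-06). Rpl11, which binds Mdm2 together with Rpl5 and 5S rRNA, went the other way, with 4424 and 4671 in cko against 6816 and 6160 in wt (-0.51 ± 0.06, adjusted p = 5.00e-05). Rpl14 was also lower, at 685.7 and 731.2 in cko against 916 and 950 in wt (-0.39 ± 0.09, adjusted p = 0.00522). Rpl12, Rps25, Rpl11 and Rpl14 have 1 probe set each. Rpl22 was higher on its brightest probe set (0.55 ± 0.08, adjusted p = 9.40e-05), but its other 2 gave 0.17 ± 0.10 and -0.59 ± 0.09. Rps9 was lower by a small amount (-0.27 ± 0.07, adjusted p = 0.0083), and this call was lost without replicate 2 of cko 0 h (-0.25) or replicate 2 of wt 0 h (-0.23), and its other probe sets gave -0.10 ± 0.17 and 0.42 ± 0.19. Markers of other cells moved with genotype at 0 h. Over 9 myeloid markers read of 10, the summed signal was 9676 to 9718 in cko, against 21091 to 21927 in wt. Of the 8 that passed the filter, 5 were lower and 1 was higher in cko. Csf1r went against the sum, at 1547 and 1634 in cko against 839 and 820 in wt. Over 5 erythroid markers read of 7 the summed signal was 241 to 262 in cko, against 1277 to 1409 in wt. None of the markers read was at 0, and their part in the differences between the genotypes was not tested.

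After 2 h of anti-IgM the genotypes were closer. Of the 46 members 11 were higher and 1 lower in cko than in wt, where 12.8% of all genes were higher and 15.7% lower. The median was 0.09 for the members and -0.02 for all genes. After quantile normalization 9 were higher and 3 lower, with medians of 0.01 for the members and -0.01 for all genes. The count of 11 depended on single arrays, with 5 higher without replicate 2 of cko 2 h and 6 without replicate 2 of wt 2 h. Rpl27a, a large-subunit protein whose reduced dose raises p53 in mice, gave 1750 and 1868 in cko against 785 and 876 in wt. Its difference of 1.11 ± 0.09 (adjusted p = 1.63e-06) was the only positive one above 1, and Rpl27a kept its call in every alternative that was run. Rpl11, which was lower in cko at 0 h, was higher at 2 h, with 9217 and 9944 in cko against 7770 and 7199 in wt (0.36 ± 0.06, adjusted p = 0.000962). Rpl37 was called at 0.29 ± 0.10 (adjusted p = 0.0435), and this was lost without any of the 4 arrays at 2 h (0.24 to 0.34). The Rpl37 call was also lost without the filter, without the intensity trend, with averaged probe sets and with the dimmest probe set. Leaving out either array of cko 12 h, which is not in this comparison, lost it too. At this time the summed myeloid markers were 2636 to 2871 in cko, against 15932 to 15977 in wt. Of 8 myeloid markers tested, 6 were lower and 1 was higher in cko. The erythroid sum was 95.7 to 97.9 in cko, against 387.0 to 409.6 in wt. The part of these markers at 2 h was not tested.

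At 12 h 13 members were higher and 25 lower in cko than in wt, where 21.4% of all genes were higher and 29.9% lower, with medians of -0.22 for the members and -0.17 for all genes. After quantile normalization the counts turned to 20 higher and 6 lower, with medians of 0.14 for the members and -0.11 for all genes. The comparison crosses the control-probe division. Apart from Rpl22l1, the largest differences upward were those of Rps9, a small-subunit protein that joins early in assembly, and Rps19, which is mutated in Diamond-Blackfan anaemia. Rps9 gave 13174 and 14328 in cko against 2823 and 3008 in wt (2.23 ± 0.07, adjusted p = 4.68e-11), and its other probe sets gave 1.79 ± 0.19 and -0.19 ± 0.17. Rps19 gave 16879 and 18842 in cko against 5932 and 5943 in wt (1.58 ± 0.06, adjusted p = 1.59e-10). The same 2 genes were also high at 2 h in both genotypes, at 12392 to 14046 for Rps19 and 11181 to 12539 for Rps9, and low at 0 h in both, so their high arrays are those of the 3 groups that the control probes set apart. Downward, Rpl27a gave 909 and 821 in cko against 2214 and 2620 in wt (-1.46 ± 0.09, adjusted p = 1.31e-08), and Rpl14 gave 828 and 810 in cko against 1575 and 1632 in wt (-0.96 ± 0.09, adjusted p = 8.97e-07). Rpl37a was lower on its brightest probe set (-1.12 ± 0.05), while its other 2 gave 1.31 ± 0.05 and 2.01 ± 0.14. Rps10, a small-subunit protein that Zfp598 tags with ubiquitin on collided ribosomes, was lower on its brightest probe set (-0.59 ± 0.05). Of its 5 others, 3 gave -0.76 to -0.40, and the remaining ones gave 0.04 ± 0.05 and 0.16 ± 0.17, the last on the dimmest. Rps27 was called at 1.23 ± 0.47 (adjusted p = 0.0422). It lost the call without replicate 1 of wt 12 h (0.86) or without replicate 1 (1.28) or 2 (1.18) of cko 12 h. The Rps27 call was also lost after quantile normalization, without the filter, without the intensity trend and with averaged probe sets. Leaving out any array of the 2 h groups, which are not in this comparison, lost it too. The summed myeloid markers were 3590 to 3740 in cko, against 7640 to 8568 in wt, with 5 lower and 1 higher of 8 tested. The erythroid ones were 79.6 to 93.7 in cko, against 370.6 to 387.1 in wt. Summed over the 7 T cell markers read of 8 the signal was 973 to 1027 in cko, against 626 to 674 in wt, with 4 higher and 1 lower. The B cell sum was 40718 to 41752 in cko, against 33944 to 34767 in wt, with 4 higher and 3 lower of 9 tested. The plasma cell sum was 8065 to 8414 in cko, against 4771 to 5081 in wt, with 3 higher and 1 lower of 4. The part of these markers at 12 h was not tested.

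**Figure D3:**
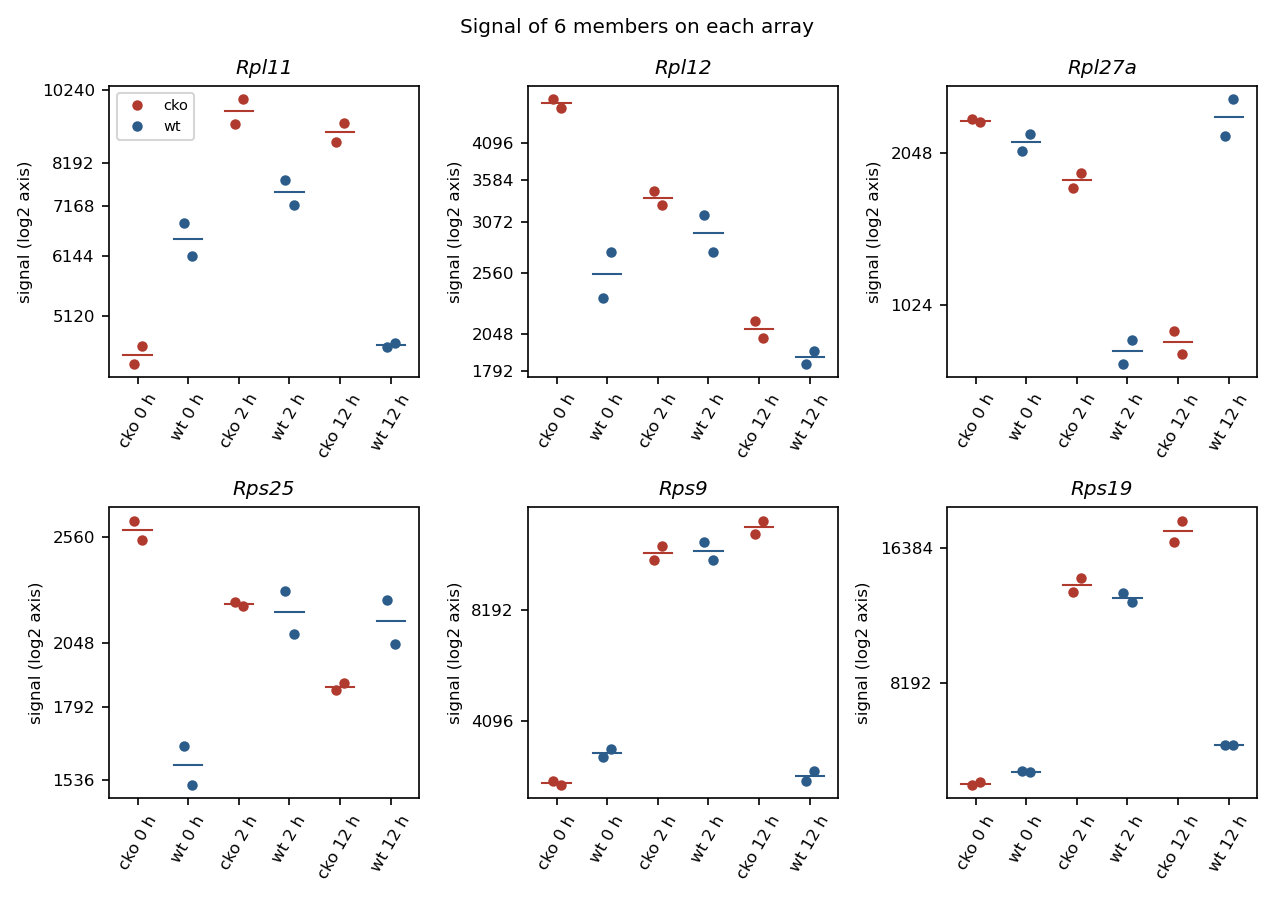
Each point is 1 array and each line the mean of a group's 2 arrays, with cko in red left of wt in blue at each time; the vertical axis is the signal on a log2 axis whose range differs between panels. Rpl12 and Rps25 were higher in cko at 0 h, Rpl27a was higher in cko at 2 h and lower at 12 h, and Rps9 and Rps19 were high in cko 2 h, wt 2 h and cko 12 h.

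Across 12 h of stimulation in wt, a comparison within the division, 18 members were higher and 6 lower at 12 h than at 0 h, where 24.8% of all genes were higher and 23.1% lower, with medians of 0.09 for the members and 0.03 for all genes. Median scaling gave 29 higher and 4 lower, with medians of 0.23 for the members and 0.16 for all genes. Quantile normalization gave 10 higher and 14 lower, with medians of -0.01 and 0.07. The direction of the family thus flips with the scaling. Of the 42 members that are not paralogs, 16 were higher, 5 were lower and 21 were not called. Among those not called, Rpsa differed by 0.10 ± 0.05 (adjusted p = 0.128), Rps4x by 0.01 ± 0.05 (adjusted p = 0.834) and Rps14 by -0.02 ± 0.05 (adjusted p = 0.788). Rplp0, the stalk protein that carries the others, gave 14941 and 15659 at 12 h against 12143 and 12552 at 0 h (0.31 ± 0.05, adjusted p = 8.79e-05), and Rps26 rose by 0.42 ± 0.05. Rpl14 rose by 0.77 ± 0.09 (adjusted p = 7.76e-06), with 1575 and 1632 at 12 h against 916 and 950 at 0 h. Rpl12 fell by 0.43 ± 0.08 (adjusted p = 0.000645) and Rpl11 by 0.47 ± 0.06 (adjusted p = 3.04e-05), with no overlap of the arrays of the 2 times. Rps24, another gene of Diamond-Blackfan anaemia, fell by 0.64 ± 0.05 on its brightest probe set (adjusted p = 1.20e-07), 3 others gave -1.14 to -1.02, and its 2 remaining ones gave 0.94 ± 0.39 and 1.04 ± 0.15. Summed cell type markers also differed in this comparison. The summed signal at 12 h against 0 h was 33944 to 34767 against 74403 to 74502 for the B cell markers. For the myeloid ones it was 7640 to 8568 against 21091 to 21927. It was 626 to 674 against 3105 to 3239 for the T cell and 371 to 387 against 1277 to 1409 for the erythroid ones. For the plasma cell ones it was 4771 to 5081 against 8233 to 8405, with 1 higher and 1 lower of 4 tested. The part of these markers in the members' differences was not tested.

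At 12 h against 2 h in cko, also within the division, 20 members were higher and 5 lower, where 30.2% of all genes were higher and 18.7% lower. The median was 0.11 for the members and 0.10 for all genes. Quantile normalization gave 13 higher and 8 lower, with medians of -0.01 for the members and 0.09 for all genes. The 20 became 12 without replicate 1 of cko 2 h. Rpl27a fell, at 909 and 821 at 12 h against 1750 and 1868 at 2 h (-1.05 ± 0.09, adjusted p = 3.38e-07), and so did Rpl12, at 2149 and 2018 at 12 h against 3447 and 3277 at 2 h (-0.69 ± 0.08, adjusted p = 9.22e-06). Rpl22l1 fell by 0.71 ± 0.12 (adjusted p = 0.000175). Rpl14 rose by 0.71 ± 0.09 (adjusted p = 1.68e-05). Rps6, the protein that S6 kinases phosphorylate, rose by 0.54 ± 0.13 (adjusted p = 0.00394) on a probe set that read 892 and 967 at 12 h against 581 and 695 at 2 h, its other probe set gave -0.54, and the call was lost without replicate 1 of cko 2 h (0.41). The summed B cell markers were 40718 to 41752 at 12 h against 30092 to 30141 at 2 h, with 6 higher and 3 lower of 9 tested. The myeloid ones were 3590 to 3740 against 2636 to 2871, with 4 higher and 1 lower of 8. The T cell ones were 973 to 1027 against 1462 to 1471, but 2 were higher and 2 lower of 7. Cd2, which is in that sum, averaged 323 at 12 h against 842 at 2 h. The part of these markers was not tested.

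The remaining comparisons between times cross the division. At 2 h against 0 h in cko 10 members were higher and 29 lower, where 23.8% of all genes were higher and 39.2% lower, with medians of -0.43 and -0.32. In wt 14 were higher and 25 lower at 2 h than at 0 h, where 23.5% of all genes were higher and 36.2% lower, with medians of -0.24 for both members and all genes. After quantile normalization these became 20 higher and 13 lower in cko, with medians of 0.07 for the members and -0.17 for all genes. In wt they became 16 higher and 11 lower, with medians of 0.06 and -0.14. At 12 h against 0 h in cko 15 were higher and 27 lower, where 25.9% of all genes were higher and 33.1% lower. The medians were -0.33 and -0.20, and after quantile normalization 22 were higher and 11 lower (medians 0.09 and -0.07). At 12 h against 2 h in wt 27 were higher and 10 lower, where 35.3% of all genes were higher and 22.0% lower. The medians were 0.46 and 0.26, and after quantile normalization 6 were higher and 18 lower (medians -0.04 and 0.19). A term for the division was also fitted, in a model of time and genotype without their interaction. For the mean 2 h difference of both genotypes it gave 6 members higher and 2 lower (median -0.04). Without the term 13 were higher and 27 lower (median -0.33). In that model the term is set only by how cko and wt differ at 12 h beyond 0 and 2 h. It therefore cannot separate the division from the groups, and no conclusion is drawn from it. Called differences of at least 2-fold at 2 h against 0 h numbered 5 higher and 1 lower in cko, where 12.4% of all genes were higher and 22.6% lower by this rule. In wt they numbered 4 higher and 2 lower, where 11.2% of all genes were higher and 19.3% lower. Summed B cell markers were also lower at 2 h than at 0 h. In cko they were 30092 to 30141 against 83188 to 84401, with 7 lower and 1 higher of 9 tested. In wt they were 31493 to 32895 against 74403 to 74502, with 6 lower and 0 higher of 9. The part of these markers was not tested.

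**Figure D4:**
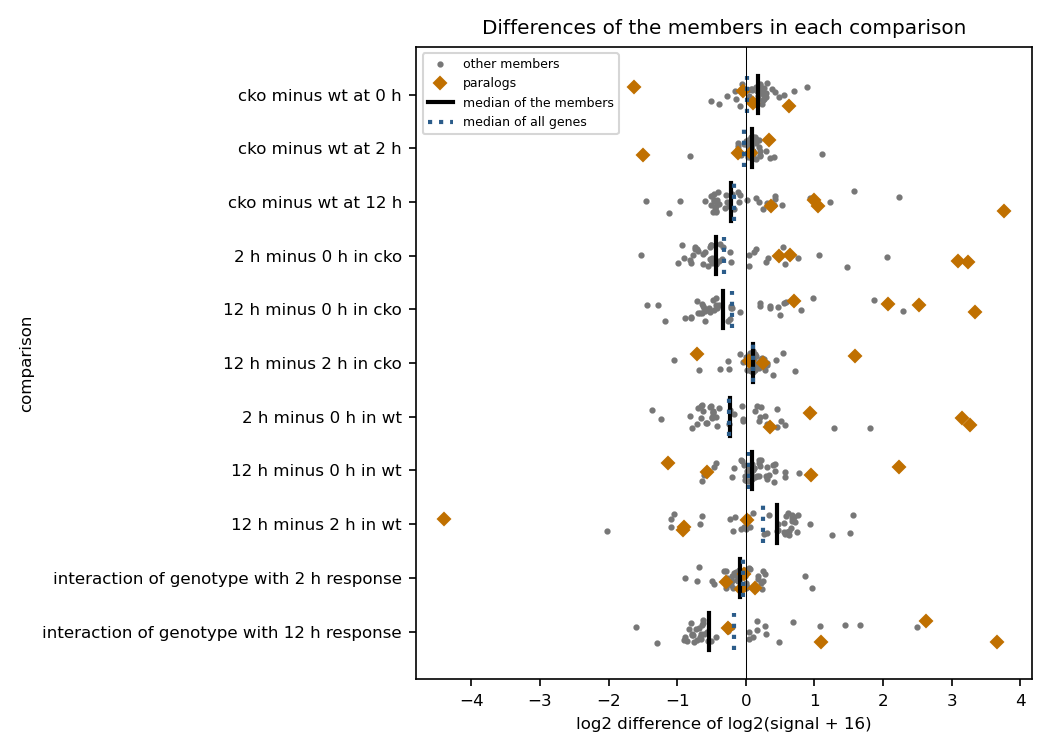
Each point is the log2 difference of 1 of the 46 members in 1 comparison, with paralogs as diamonds, the median of the members as a solid bar and the median of all 12190 genes as a dotted bar. The members' medians lie between -0.53 and 0.46, while Rpl22l1 and Rps27l lie beyond 3 at 2 h.

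The direction of a member often depended on which of its probe sets was read. For the 22 genes with several passing probe sets, the other 52 probe sets had the opposite sign to the brightest in 26 of 52 cases for 2 h minus 0 h in cko and in 23 of 52 in wt, against 12 of 52 for 12 h minus 0 h in wt. The brightest ones had a median difference of -0.52 and the others of 0.39 at 2 h against 0 h in cko. Rpl37a shows this: its brightest probe set averaged 15667 at 2 h against 37091 at 0 h in wt, while another averaged 8439 at 2 h against 3976 at 0 h. For Rps7, a small-subunit protein that also binds Mdm2, the brightest averaged 19380 at 2 h against 29804 at 0 h in wt, and the other 8321 at 2 h against 782 at 0 h. The probe sets of Rps28 differed from each other little, with all 3 lower at 2 h than at 0 h in wt (22866 against 32226, 22326 against 31705 and 21088 against 29649).

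**Figure D5:**
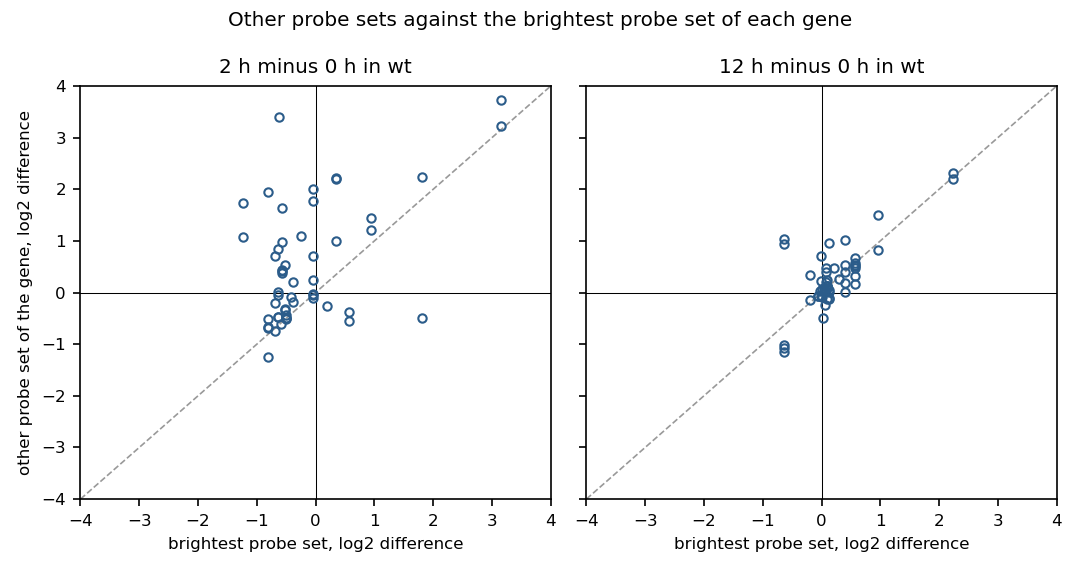
Each circle is 1 of the 52 other probe sets of 22 members, with the log2 difference of the gene's brightest probe set on the horizontal axis and its own on the vertical axis; the dashed line marks equal values. For 2 h minus 0 h in wt 23 circles have opposite signs on the axes, and for 12 h minus 0 h in wt 12 do.

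Whether the response differed between genotypes was tested as an interaction, the change in cko minus the change in wt. At 2 h 3 members had a positive interaction and 9 a negative one, where 8.59% of all genes were positive and 11.8% negative; after quantile normalization 11 were positive and 4 negative. Rpl27a (0.97 ± 0.13, adjusted p = 0.000155) and Rpl11 (0.87 ± 0.09, adjusted p = 2.52e-05) were positive. Rpl11 rose by 1.07 ± 0.06 in cko and by 0.21 ± 0.06 in wt. Rpl12 (-0.71 ± 0.12, adjusted p = 0.000866) and Rps25 (-0.68 ± 0.10, adjusted p = 0.000347) were negative, since they fell in cko (-0.49 ± 0.08 and -0.22 ± 0.07) and rose in wt (0.22 ± 0.08 and 0.46 ± 0.07). Rpl22l1 (-0.03 ± 0.17, adjusted p = 0.933) and Rps27l (-0.07 ± 0.10, adjusted p = 0.691) were not called. The negative count of 9 became 5 without replicate 1 of cko 2 h. At 12 h 9 members were positive and 28 negative, where 18.8% of all genes were positive and 24.4% negative. The medians were -0.53 and -0.17. Quantile normalization gave 17 positive and 9 negative, with medians of 0.05 for the members and -0.11 for all genes. Rpl22l1 (3.65 ± 0.17), Rps9 (2.50 ± 0.10, with 1.38 ± 0.26 and -0.09 ± 0.24 on its other probe sets) and Rps19 (1.67 ± 0.08) were the largest positive ones besides the dim Rps4l, and Rpl27a (-1.60 ± 0.13) was the largest negative one.

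Genes that work with the ribosomal proteins were read from 4 lists, to be set against the shares of all genes called. These were 23.8% higher and 39.2% lower in cko and 23.5% and 36.2% in wt at 2 h against 0 h. At 12 h against 0 h they were 25.9% and 33.1% in cko and 24.8% and 23.1% in wt. Of these comparisons only 12 h against 0 h in wt lies within the control-probe division. The lists were not read under other scalings. Of 23 assembly, import and export factors tested, 20 were higher and 3 lower at 2 h than at 0 h in cko (median 0.96), and 19 were higher and 3 lower in wt (median 1.09). At 12 h against 0 h 16 were higher and 1 lower in cko (median 0.57) and 12 higher and 1 lower in wt (median 0.50), with Ipo5, an importin (1.73 ± 0.07), Grwd1, a chaperone of Rpl3 (1.64 ± 0.06), Pno1, a small-subunit assembly factor (1.57 ± 0.08) and Tsr1, also of the small subunit (1.14 ± 0.05), as the 4 with the smallest p in wt. Of 15 other translation genes with TOP-type mRNAs, 9 were higher and 6 lower in cko (median 0.47) and 5 higher and 3 lower in wt (median 0.07) at 12 h against 0 h, Npm1 (0.72 ± 0.05) and Eef1d (0.86 ± 0.06) among those that rose in wt. Of 16 genes of mTORC1 and Larp1 control, 5 were higher and 6 lower in cko (median -0.15) and 5 higher and 4 lower in wt (median 0.27) at 12 h against 0 h. Among them Pdcd4, an inhibitor of translation that S6 kinase marks for destruction, fell by 1.15 ± 0.07 in wt, and Eif4ebp1, which blocks the cap-binding protein, rose by 0.97 ± 0.07. Of 8 genes of ribosome rescue and quality control, 3 were higher and 4 lower in cko (median -0.27) and 2 higher and 1 lower in wt (median -0.17) at 12 h against 0 h. In wt these are 31.3% higher and 25% lower for the mTORC1 and Larp1 list and 25% higher and 12.5% lower for the rescue list, near the shares of all genes or below them. Abce1, which splits ribosomes, rose by 0.70 ± 0.10 in wt. Between the genotypes at 0 h, 5 of 23 assembly factors were higher and 0 lower in cko than in wt, and 2 of 15 TOP-type genes were higher and 6 lower (Eef2 at -0.52 ± 0.06), where 16.3% of all genes were higher and 16% lower. Fau, a fusion of a ubiquitin-like protein with Rps30 that lies outside the symbol rule, gave 21676 and 21357 in cko against 19794 and 19357 in wt at 0 h.

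Few members were unmeasured or flat. Rps16, on a probe set that read at most 3.09, Rpl3l (at most 14.6) and Rpl39l (at most 28.6) did not pass the filter, and no statement is made about them. Rpl39 gave 62.2 to 264.6 and was the only tested member with no call in any of the 11 comparisons. Rps27 was called in 1 and Rps6 in 2. At the other end Rpl11, Rpl35, Rpl38 and Rpl8 were each called in 10. Of 84 gene-by-comparison results named by the rule for the largest changes, 60 kept direction and call in every one of the 22 alternatives that refitted single genes and gave them a value. The rule of a 2-fold difference is not among these 22, and 43 of the 84 met it. Direction and call held for 82 of 84 under quantile normalization.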

How the data were processed

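RNA of sorted B cells was amplified in a pair of rounds and hybridized to Affymetrix mouse genome arrays, per the labels' protocols. Scanning and signals used GCOS 1.4, per the submitters' processing notes. The deposited table holds linear signal intensity per probe set, which the authors scaled per array. Symbols come from the platform annotation, and start regions from RefSeq on GRCm38.p6. Values were taken as log2(signal + 16). Probe sets at or under the 40th percentile of the mean (5.14) were left out, 1 probe set per gene was kept, and 12190 genes were fitted with limma 3.58.1 in R 4.3.3 (6 group means, eBayes with trend, 6 residual and 7.29 prior degrees of freedom, two-sided, Benjamini-Hochberg over all genes, called at adjusted p under 0.05). The fit was tested on simulated data. Named genes were, per comparison, the 4 largest rises and 4 largest falls among called members without overlap of arrays (no overlap condition for interactions), a fixed list of well-known members and paralogs, and at most 4 genes of each list by smallest p. Rpl35, Rpl8, Rps7, Rps18 and Rps28 were chosen after their values were seen. Members and lists were chosen with earlier results of these data known. Alternatives were the scaling, the pseudocount (1 or 64), the filter, the trend, the replicate block, the choice of probe set, the 2-fold rule, a term for the control-probe division, and leaving out each array. The number of arrays limits the precision.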

Additional observations from a re-analysis of the deposited data

Results flagged for a closer look

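Responses that differed between the genotypes, by the interaction test over all genes, are gathered here. At 2 h 3 members had a positive and 9 a negative interaction. The named ones were Rpl27a (0.97), Rpl11 (0.87), Rplp0 (0.22), Rpl12 (-0.71), Rps25 (-0.68), Rpl38 (-0.49) and Rpl22 (-0.47). Rplp0 lost the call under several alternatives. Rpl22 lost it after quantile normalization (-0.21) and without the intensity trend, and turned positive on its dimmest probe set (0.82, adjusted p = 0.000892), with averaged probe sets (0.16) and on probe sets without a suffix (0.13). At 12 h 9 were positive and 28 negative. Rpl22l1 (3.65), Rps4l (2.63), Rps9 (2.50), Rps19 (1.67) and Rps27l (1.10) were positive, and Rpl27a (-1.60), Rpl37a (-1.30), Rps25 (-0.90) and Rpl38 (-0.89) were negative. The sign of Rpl37a held only on its brightest probe set, since averaged probe sets gave 0.79 (adjusted p = 1.20e-05) and the dimmest gave 2.26 (adjusted p = 5.35e-07). In cko the 12 h response crosses the control-probe division and in wt it does not, so the division and the interaction at 12 h cannot be told apart.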

How the results depend on the processing

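A p that misses the threshold after such a change does not show that values did not differ. The counts below are of members higher and then lower, and a count is said to have moved where it changed by over 1.5 times. Shares of all genes called were taken in the main setting only. After quantile normalization the counts of members higher and lower moved in every comparison by over 1.5 times in at least 1 direction. Counts of cko against wt were 8 and 11 at 0 h, 9 and 3 at 2 h and then 20 and 6 at 12 h. For time in cko, there were 20 and 13 at 2 h against 0 h, 22 and 11 at 12 h against 0 h and then 13 and 8 at 12 h against 2 h. Over time in wt, the counts came to 16 and 11 at 2 h against 0 h, 10 and 14 at 12 h against 0 h and then 6 and 18 at 12 h against 2 h. In the test of the interaction they were 11 and 4 at 2 h and then 17 and 9 at 12 h. Without the trend of the variance with intensity, counts that moved were lower. For cko against wt, there were 13 and 3 at 0 h and then 3 and 1 at 2 h. Over time in cko, the counts came to 12 and 5 at 12 h against 2 h. For time in wt they were 9 and 24 at 2 h against 0 h and then 11 and 4 at 12 h against 0 h. Counts for the interaction were 2 and 3 at 2 h. When probe sets of a gene were averaged, these counts moved. Over time in cko, the counts came to 17 and 21 at 2 h against 0 h, 19 and 17 at 12 h against 0 h and then 19 and 8 at 12 h against 2 h. For time in wt they were 22 and 16 at 12 h against 2 h. Counts for the interaction were 5 and 7 at 2 h and then 16 and 21 at 12 h. With the dimmest passing probe set, an alternative chosen after seeing the data, these moved. Of cko against wt, the counts came to 16 and 5 at 0 h and then 7 and 2 at 2 h. For time in cko they were 18 and 18 at 2 h against 0 h, 18 and 15 at 12 h against 0 h and then 15 and 10 at 12 h against 2 h. Counts over time in wt were 19 and 16 at 2 h against 0 h and then 18 and 17 at 12 h against 2 h. In the test of the interaction, there were 6 and 5 at 2 h and then 14 and 21 at 12 h. With only probe sets without a suffix, fewer members were tested, and these moved. For cko against wt they were 6 and 3 at 0 h, 7 and 1 at 2 h and then 7 and 5 at 12 h. Counts over time in cko were 10 and 6 at 2 h against 0 h, 12 and 5 at 12 h against 0 h and then 6 and 8 at 12 h against 2 h. For time in wt, there were 11 and 5 at 2 h against 0 h, 10 and 3 at 12 h against 0 h and then 6 and 8 at 12 h against 2 h. For the interaction, the counts came to 3 and 2 at 2 h and then 5 and 8 at 12 h. With a difference of at least 2-fold also needed, the counts were lower. Counts of cko against wt were 0 and 1 at 0 h, 1 and 1 at 2 h and then 5 and 2 at 12 h. For time in cko, there were 5 and 1 at 2 h against 0 h, 5 and 3 at 12 h against 0 h and then 1 and 1 at 12 h against 2 h. Over time in wt, the counts came to 4 and 2 at 2 h against 0 h, 1 and 1 at 12 h against 0 h and then 3 and 3 at 12 h against 2 h. In the test of the interaction they were 0 and 0 at 2 h and then 6 and 2 at 12 h. Median scaling moved a count by over 1.5 times only for time in wt at 12 h against 0 h, to 29 higher and 4 lower. A term for the control-probe division was fitted in a model of time and genotype without their interaction. With it the mean 2 h difference had 6 higher and 2 lower and the mean 12 h difference 12 and 3. The mean of cko against wt had 15 and 2. Without it these were 13 and 27, 17 and 22, and 18 and 7. The term is set only by how cko and wt differ at 12 h beyond 0 and 2 h. It thus cannot separate the division from the groups. The cause of the moves in these counts was not tested, apart from the fewer members tested where only probe sets without a suffix were read.

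Leaving out 1 array at a time gave these lowest and highest counts. For cko against wt there were 18 to 27 higher and 3 to 6 lower at 0 h, 5 to 12 higher and 0 to 2 lower at 2 h and then 10 to 14 higher and 23 to 25 lower at 12 h. For time in cko there were 10 to 11 higher and 28 to 29 lower at 2 h against 0 h, 14 to 16 higher and 25 to 27 lower at 12 h against 0 h and then 12 to 21 higher and 5 to 5 lower at 12 h against 2 h. For time in wt there were 9 to 14 higher and 24 to 25 lower at 2 h against 0 h, 16 to 19 higher and 4 to 6 lower at 12 h against 0 h and then 27 to 27 higher and 7 to 11 lower at 12 h against 2 h. For the interaction there were 2 to 4 higher and 5 to 11 lower at 2 h and then 8 to 9 higher and 26 to 29 lower at 12 h. The lower count of cko against wt at 0 h was 3 without replicate 2 of wt 0 h, that at 2 h was 0 without replicate 1 of wt 2 h and 2 without replicate 2 of cko 2 h, and the higher count of 2 h against 0 h in wt was 9 without replicate 2 of wt 0 h or replicate 1 of wt 2 h.

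Reversed values of single genes came only from the choice of probe set. On the dimmest probe set, Rpl22 gave -0.59 for cko against wt at 0 h and 0.82 for the interaction at 2 h. Rpl37a gave 2.01 for cko against wt at 12 h, 2.11 for 2 h against 0 h in cko, 2.18 for 12 h against 0 h in cko, 1.74 for 2 h against 0 h in wt, -1.82 for 12 h against 2 h in wt and 2.26 for the interaction at 12 h. Rpl41 gave -0.70 for 12 h against 2 h in cko. Rps10 gave 0.16 for cko against wt at 12 h, 2.05 for 2 h against 0 h in cko, 1.94 for 2 h against 0 h in wt and -0.99 for 12 h against 2 h in wt. Rps24 gave 0.13 for 12 h against 0 h in cko and 0.94 for 12 h against 0 h in wt. Rps6 gave -0.54 for 12 h against 2 h in cko. Rps9 gave 0.42 for cko against wt at 0 h. With averaged probe sets, Rpl22 gave 0.16 for the interaction at 2 h. Rpl37a gave 0.73 for cko against wt at 12 h, 0.63 for 2 h against 0 h in cko, 0.79 for 12 h against 0 h in cko, 0.53 for 2 h against 0 h in wt, -0.52 for 12 h against 2 h in wt and 0.79 for the interaction at 12 h. Rpl41 gave -0.00954 for 12 h against 2 h in cko. Rps24 gave 0.23 for 12 h against 0 h in cko. Rps6 gave -0.00323 for 12 h against 2 h in cko. Rps9 gave 0.0135 for cko against wt at 0 h. With only probe sets without a suffix, Rpl22 gave 0.13 for the interaction at 2 h. Rpl41 gave -0.70 for 12 h against 2 h in cko. Rps10 gave 0.16 for cko against wt at 12 h, 2.05 for 2 h against 0 h in cko, 1.94 for 2 h against 0 h in wt and -0.99 for 12 h against 2 h in wt. Rps24 gave 0.85 for 12 h against 0 h in cko and 1.04 for 12 h against 0 h in wt. Rps9 gave 0.42 for cko against wt at 0 h.

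With the replicate block the counts were 27 higher and 5 lower for cko against wt at 0 h, 12 and 1 at 2 h, and 13 and 25 at 12 h, and the block changed no call on the 84 named results. Same-numbered arrays of different groups did not deviate together, with correlations of -0.014 to 0.013 over 15 pairs of groups. This cannot show whether arrays of the same number shared mice or handling, and the labels do not say what the number stands for. Pseudocounts of 1 or 64 kept all 84 named results. Bright signals near the top of the range and dim ones near the added 16 limit what a difference can show.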
